A study of Mus musculus with 4 samples.

Results

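Dividing T cells were followed in the intraepithelial layer of 4 segments of the mouse gut. A cell barcode counted as a T cell when it held at least 1 UMI (unique molecular identifier, 1 counted transcript) of the receptor chains Cd3d, Cd3e and Cd3g together and 0 UMIs of the B cell gene Cd79a and the myeloid gene Lyz2. It counted as dividing when it also held at least 3 UMIs, summed, of Mki67, Top2a, Pclaf, Birc5 and Ube2c. This gave 241 dividing T cells among 14378 barcodes, with 7 in stomach, 98 in small intestine, 45 in the cecum and 91 in colon. They were set against the T cells of the same library with 0 UMIs of the 5 genes, called non-dividing here, of which there were 282 in stomach, 2038 in small intestine, 3253 in the cecum and 2911 in colon. T cells with 1 or 2 UMIs were in neither group. The mice were uninfected C57BL/6 animals, with no transgene or treatment named, and the cells were live leukocytes sorted for CD45.2, so T cells were not selected by the sort. The extract protocol names colons in all 4 records, and the tissue labels are used here as given. Each tissue had 1 droplet library made with the 10x Genomics 3′ chemistry. Age, sex and the number of animals per library are not given in the sources used here. With 1 library per tissue no difference between tissues has a replicate check. Members and non-members were split by measured UMIs, so the contrast between them is a description and carries no p-value.

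Intraepithelial lymphocytes sit between the epithelial cells of the gut. In mice many of them carry the γδ T cell receptor or an αβ receptor with the CD8αα homodimer, hold granzymes ready and stay in the tissue for long periods. A T cell that divides copies its DNA in S phase, condenses and separates its chromosomes in G2 and M phase, and switches on separate gene sets for each step. Genes of S phase are known targets of E2F factors. Genes of G2 and M phase are known targets of the DREAM and MMB-FOXM1 complexes, which reach promoters through a short sequence called the CHR element and often through nearby CCAAT boxes bound by NF-Y.

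The 5 genes that chose the cells mark different steps. Top2a, the topoisomerase that untangles copied DNA, had 550.4, 983, 965 and 772 CPM (UMIs of a gene per 1000000 UMIs summed over the group) in dividing T cells of stomach, small intestine, cecum and colon. Mki67, which coats mitotic chromosomes, had 330.2, 1039, 832 and 867 CPM in the same order. Both were found in 57.1% or more of the dividing cells of every tissue. Pclaf, a partner of the replication clamp PCNA, had 578, 837, 840.4 and 662 CPM. Birc5, the chromosomal passenger protein survivin, had 82.6, 542, 603 and 472 CPM. Ube2c, the ubiquitin-conjugating enzyme of the anaphase-promoting complex, was at 0 UMIs in the 7 stomach cells and had 405, 470.5 and 284 CPM in the other libraries. Ube2c was the least widespread of the 5 in the cecum and colon, with a UMI in 40% and 38.5% of dividing cells. The non-dividing cells had 0 UMIs of all 5 by the rule. Cd3g, the most abundant of the 3 CD3 chains, had 1458, 2019, 1846 and 2151 CPM in dividing cells, against 1931, 3662, 2891 and 2584 CPM in non-dividing cells. A list of 12 T cell markers includes the 3 CD3 chains of the rule, so it is no separate check of the label. At least 1 UMI of all 12 was in the dividing cells of small intestine, cecum and colon, and of all but Trdc in those of stomach. The list made up 10154, 8822, 9321 and 9610 CPM in dividing cells of stomach, small intestine, cecum and colon. In non-dividing cells it made up 9992, 12163, 12507 and 12109 CPM.

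The promoters of these 5 genes are shown because these genes chose the cells. The 2 motifs named above for G2 and M phase genes were searched in them, and no motif of S phase genes was searched. Each is the RefSeq window of 300 bases, from 250 before to 50 after the annotated start, on the gene's own strand in GRCm38.p6. Capitals mark the CHR letters TTTGAA and the CCAAT box letters CCAAT on either strand, which did not overlap each other in any of the 5 windows.
Mki67 (chr7:135716330-135716629, minus strand): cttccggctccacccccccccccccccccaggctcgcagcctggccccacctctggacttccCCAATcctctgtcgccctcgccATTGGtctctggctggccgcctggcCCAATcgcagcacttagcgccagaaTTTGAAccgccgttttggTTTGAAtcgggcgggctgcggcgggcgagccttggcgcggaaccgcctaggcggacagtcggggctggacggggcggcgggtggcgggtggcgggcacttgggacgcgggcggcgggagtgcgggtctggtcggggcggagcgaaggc
Top2a (chr11:99024140-99024439, minus strand): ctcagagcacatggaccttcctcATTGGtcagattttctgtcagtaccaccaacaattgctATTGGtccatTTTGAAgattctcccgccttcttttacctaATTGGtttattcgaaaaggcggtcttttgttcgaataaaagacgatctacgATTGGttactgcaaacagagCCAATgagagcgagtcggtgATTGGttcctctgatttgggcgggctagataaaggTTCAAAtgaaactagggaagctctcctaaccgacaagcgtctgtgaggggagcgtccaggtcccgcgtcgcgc
Pclaf (chr9:65890073-65890372, plus strand): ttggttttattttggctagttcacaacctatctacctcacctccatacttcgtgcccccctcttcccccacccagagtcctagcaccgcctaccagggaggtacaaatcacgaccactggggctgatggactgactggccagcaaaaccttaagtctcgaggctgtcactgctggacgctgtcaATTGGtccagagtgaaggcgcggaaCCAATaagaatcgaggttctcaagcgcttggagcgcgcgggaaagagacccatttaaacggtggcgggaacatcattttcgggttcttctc
Birc5 (chr11:117848987-117849286, plus strand): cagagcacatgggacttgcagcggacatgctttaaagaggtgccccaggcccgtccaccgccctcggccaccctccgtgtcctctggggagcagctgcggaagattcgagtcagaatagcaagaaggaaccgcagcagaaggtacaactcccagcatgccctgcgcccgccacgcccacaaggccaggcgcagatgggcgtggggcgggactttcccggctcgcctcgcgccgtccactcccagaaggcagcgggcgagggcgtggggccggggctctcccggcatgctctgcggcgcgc
Ube2c (chr2:164769679-164769978, plus strand): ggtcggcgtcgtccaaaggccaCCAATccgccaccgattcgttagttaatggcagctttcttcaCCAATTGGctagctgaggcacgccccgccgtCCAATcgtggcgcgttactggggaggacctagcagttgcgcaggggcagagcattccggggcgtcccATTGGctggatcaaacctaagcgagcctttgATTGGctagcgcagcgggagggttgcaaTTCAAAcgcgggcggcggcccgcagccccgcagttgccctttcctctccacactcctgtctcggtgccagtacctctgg
CHR letters were in the windows of Mki67, Top2a and Ube2c, and CCAAT letters in those of Mki67, Top2a, Pclaf and Ube2c. The Birc5 window held neither, which says only that these exact letters are absent from it. Of all 32851 RefSeq promoter windows of this length, 17.9% held TTTGAA on either strand, 37.4% held CCAAT and 6.95% held both. Windows were found for 49 genes of the G2 and M phase list used below, and 69.1% of their 55 windows held TTTGAA, 80.0% held CCAAT and 56.4% held both. For 39 genes of the S phase list the shares were 13.0%, 56.5% and 10.9% of 46 windows. A match of letters is not a binding site.

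The dividing cells were deeper than the cells they were compared with. Their median was 5137 UMIs per cell in stomach, 4475 in small intestine, 5226 in the cecum and 7131 in colon, against 2506, 2276, 1737 and 2918 in non-dividing T cells. The ratio of the medians was 2.05 in stomach, 1.97 in small intestine, 3.01 in the cecum and 2.44 in colon. A count threshold is passed more easily in a deep cell, so shares of cells were also taken after each cell was thinned at random to 1000 UMIs. Summed over the dividing cells there were 36339 UMIs in stomach, 520638 in small intestine, 248677 in the cecum and 672105 in colon. Ranges in parentheses are exact 95% intervals throughout and cover counting error only, not the spread between cells, animals or libraries. Of 14355 barcode sequences, 23 occurred in more than 1 library. Among the dividing cells 2 carried such a barcode, and no barcode was dividing in more than 1 library.

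Other cell cycle genes were higher in cells with more marker UMIs. The dividing cells held a median of 4 marker UMIs in stomach, 12.5 in small intestine, 13 in the cecum and 10 in colon, and up to 109 in a colon cell. Just inside the threshold, at 3 UMIs, lay 3 cells of stomach, 17 of small intestine, 3 of cecum and 24 of colon. Just outside it, at 2 UMIs, lay 6, 52, 5 and 67 T cells. In small intestine the 114 genes of the S and the G2 and M phase lists, which leave out the 5 rule genes, gave a mean of 24.3 UMIs per 1000 in cells with 10 or more marker UMIs, 12 with 5 to 9, 7.07 with 3 or 4, 4.13 with 2 and 2.82 with 0. Cecum gave 24.7, 14.4, 8.67, 4 and 2.95 over the same steps, and colon 23.1, 11, 6.77, 4.18 and 2.85. The cells at 3 or 4 marker UMIs held fewer other cell cycle transcripts on average than the cells above them. They were 57.1% of the dividing cells in stomach, 27.6% in small intestine, 6.67% in the cecum and 34.1% in colon. In stomach their mean was 4, against 2.49 at 0 marker UMIs. At 3 marker UMIs the median was 3 in small intestine, 10 in the cecum and 5.5 in colon. Cells at 0 had a median of 3 in each. In small intestine the median thus did not set the cells at 3 apart from those at 0. A colon member held 0 UMIs of both lists.

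**Figure D1:**
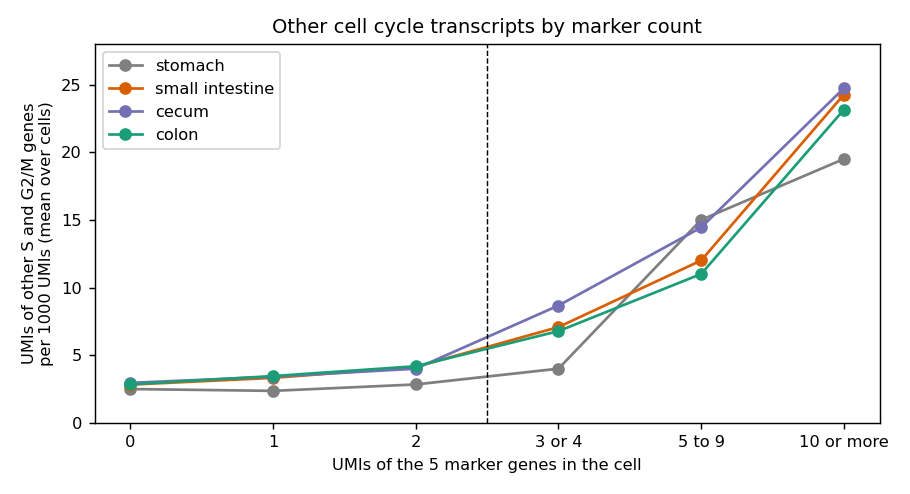
Mean number of UMIs of 114 other S phase and G2 or M phase genes per 1000 UMIs of a cell (vertical axis), by the number of UMIs of the 5 marker genes in the cell (horizontal axis), for the T cells of each library. The dashed line is the threshold of 3 UMIs, and the lines of small intestine, cecum and colon lie at 2.82 to 2.95 at 0 marker UMIs and at 23.1 to 24.7 at 10 or more.

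By the rule, the share of T cells that were dividing was largest in the small intestine library and smallest in the cecum library. It was 2.19% (0.884 to 4.45%) in stomach, 3.94% (3.21 to 4.78%) in small intestine, 1.31% (0.957 to 1.75%) in the cecum and 2.71% (2.19 to 3.32%) in colon. With every cell thinned to 1000 UMIs and at least 3 marker UMIs still required, it was 0.313% (0.00794 to 1.73%) in stomach, 2.21% (1.67 to 2.87%) in small intestine, 0.800% (0.528 to 1.16%) in the cecum and 1.11% (0.780 to 1.52%) in colon. The cecum and colon intervals overlapped after this thinning and did not overlap before it. With at least 1 marker UMI after thinning it was 6.9% (4.37 to 10.3%), 9.81% (8.67 to 11%), 3.14% (2.58 to 3.79%) and 5.68% (4.92 to 6.52%) in the same order. The interval of small intestine lay above that of cecum in all 3 of these counts. It lay above that of colon in both thinned counts and overlapped it without thinning. Stomach, with 1 such cell, was lowest at 3 UMIs after thinning. Without barcodes holding 2 or more UMIs of other cells' markers the share was 3.19% (2.31 to 4.27%) in small intestine, 0.766% (0.468 to 1.18%) in the cecum and 1.21% (0.766 to 1.81%) in colon, where the last 2 intervals overlap.

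A separate set of 5 cell cycle genes, Cdk1, Ccna2, Nusap1, Tpx2 and Cdca8, also gave the highest share in small intestine and a lower one in the cecum than in colon. At the same minimum of 3 UMIs it marked 0.312% of T cells in stomach, 2.29% in small intestine, 0.757% in the cecum and 1.25% in colon. Of the cells it marked, 1 of 1, 56 of 57, 26 of 26 and 40 of 42 were among the members, which is 14.3%, 57.1%, 57.8% and 44.0% of the members of each library.

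Barcodes of other cells gave the level that the marker genes reached outside T cells. In stomach, 2.82% of 1949 mast-type barcodes (10 or more UMIs of mast cell genes, no Cd3 UMI, median 1889 UMIs) held at least 3 marker UMIs before thinning, against 2.19% of T cells (median 2535.5 UMIs). It was 1.77% of 113 B-type barcodes (median 2422 UMIs) and 1.36% of 221 macrophage-type barcodes (median 4781 UMIs). The stomach share was thus below that of the mast-type barcodes, the largest of the other groups, and above the other 2, and the T cell interval of 0.884 to 4.45% covers all 3. In colon 0 of 176 B-type barcodes (a Cd79a UMI, no Cd3 UMI, median 1939 UMIs) reached 3 marker UMIs, which at a floor of 3 counts allows up to 1.70%, against 2.71% of T cells (median 3001.5 UMIs). In small intestine 1 of 61 mast-type barcodes (median 2489 UMIs) reached it, or 1.64%, against 3.94% of T cells (median 2333 UMIs). The floor of 3 counts is 4.92% of 61 barcodes, above the T cell share, so these barcodes are too few to set a lower background. B-type barcodes reached 3 marker UMIs in 9.05% of cases in small intestine (median 10418 UMIs) and 5.08% in the cecum (median 1247 UMIs). Both shares lay above those of T cells, at 3.94% and 1.31%. B cells can divide themselves, and how far that raised these shares was not tested. After thinning, 4.55% (1.98 to 8.76%) of B-type barcodes of colon held at least 1 marker UMI. Of T cells there it was 5.68% (4.92 to 6.52%), and the intervals overlap. In stomach, 1.71% of mast-type barcodes and 0.313% of T cells held at least 3 after thinning. At least 1 was in 5.56% and 6.90%.

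**Figure D2:**
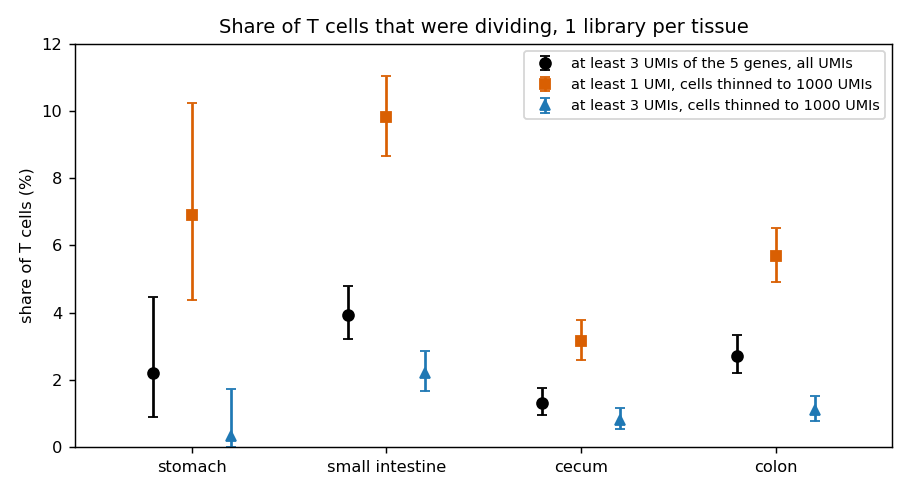
Share of T cells, in percent, that were dividing in each library under 3 counts: at least 3 marker UMIs in all UMIs of a cell (circles), at least 1 after thinning to 1000 UMIs (squares) and at least 3 after thinning (triangles), with exact 95% binomial intervals as bars. Small intestine is highest in each count, from 2.21% to 9.81%, and the stomach interval is wide because it rests on 7 dividing cells.

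In every tissue with at least 30 dividing cells, about the same share of them held more G2 and M phase than S phase transcripts. The lists had 60 and 54 genes and leave out the rule genes. More G2 and M than S phase UMIs were in 37 of 98 dividing cells of small intestine, or 37.8% (28.2 to 48.1%), in 17 of 45 of cecum, or 37.8% (23.8 to 53.5%), and in 34 of 91 of colon, or 37.4% (27.4 to 48.1%). In stomach this held for 0 of 7 (0 to 41.0%). Among non-dividing T cells it held for 8.51% in stomach, 10.5% in small intestine, 9.04% in the cecum and 10.4% in colon. The rule genes include genes of mitosis, so part of this difference is set by the rule. Among dividing cells with at least 5 marker UMIs it held for 46.5%, 40.5% and 43.3% in small intestine, cecum and colon. The S phase list contains repair and replication genes that resting cells also use, so more S phase UMIs do not place a non-dividing cell in S phase. Summed over dividing cells the S phase list made up 9824, 9425, 11251.5 and 9998 CPM in stomach, small intestine, cecum and colon, against 1914, 2027, 2246 and 2149.8 CPM in non-dividing cells. The G2 and M phase list made up 2394, 9327, 8746 and 8084 CPM in dividing cells, against 587, 776, 750.4 and 776 CPM in non-dividing cells. The 7 stomach cells had the lowest G2 and M total of the 4 libraries.

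**Figure D3:**
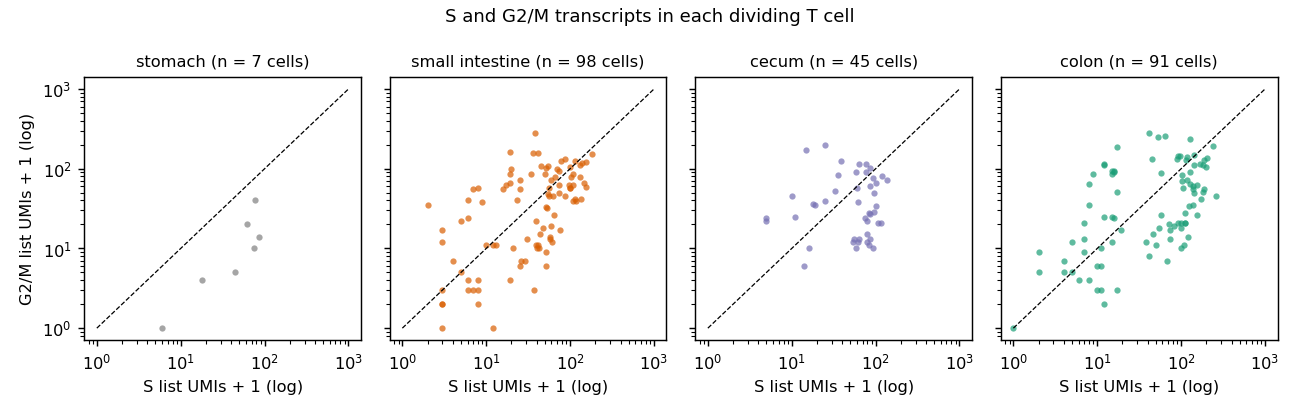
Each point is 1 dividing T cell, with its UMIs of the S phase list (horizontal axis, plus 1, log scale) and of the G2 and M phase list (vertical axis, plus 1, log scale), in 1 panel per library. Points above the dashed line hold more G2 and M phase UMIs, and these are 37 of 98 cells in small intestine, 17 of 45 in the cecum, 34 of 91 in colon and 0 of 7 in stomach.

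For single genes, UMIs were summed over the dividing and over the non-dividing cells of a library, and a gene was called past 1.5-fold where it reached 50 CPM in either group and 20 UMIs in the 2 groups together. A gene well under 50 CPM in non-dividing cells could be tested only through dividing cells, which fixed its call as higher. Of 4674 genes that could be tested in small intestine, 18.3% were called higher in dividing cells and 18.9% lower. Of 4721 in the cecum 19.6% were higher and 17.4% lower, and of 4526 in colon 14.5% were higher and 12.9% lower. In cecum the totals set the split: with median-of-ratios size factors, which shift all log2 ratios there by −0.15, 687 genes were higher and 1134 lower, against 924 and 823 by totals. Of the 3759 genes tested in all 3 tissues, 383 were higher and 192 lower in each of them, and 86 of the 383 belonged to the S or the G2 and M phase list. Stomach was left out of these counts because it had 7 dividing cells. The gene lists were read beside these percentages, and because the cells were chosen on cell cycle genes, nothing is read from their agreement with the lists of the cell cycle.

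Genes of DNA replication were higher with 1 exception in small intestine. All 47 tested genes of the S phase list in the cecum, all 49 in colon and 43 of 44 in small intestine were called higher, with median log2 ratios of 2.71 in small intestine, 2.76 in the cecum and 2.47 in colon, beside -0.05, 0.03 and -0.01 over all genes tested. Rrm2, the regulated subunit of ribonucleotide reductase, had 51.9, 64.3 and 68.4 CPM in dividing cells of small intestine, cecum and colon, against 0.775, 0.647 and 0.321 CPM in non-dividing cells. Uhrf1, which carries DNA methylation over to the new strand, was 46.9-fold higher (30.5 to 74.6) in small intestine, 40-fold higher (26.7 to 60.7) in the cecum and 37.4-fold higher (29.1 to 48.4) in colon. Rpa2, a subunit of the protein that coats single-stranded DNA, was the gene that missed the threshold in small intestine, at 1.38-fold, and was 3.52-fold higher in the cecum and 2.05-fold higher in colon.

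Genes of mitosis showed the largest ratios of the lists, and non-dividing cells held few of their UMIs. All 53, 44 and 47 tested genes of the G2 and M phase list were called higher in small intestine, cecum and colon, with median log2 ratios of 5.5, 5.37 and 5.03. Those with few UMIs in non-dividing cells were tested only through dividing cells, so the filter fixed their call. Ccnb2, a B-type cyclin, had 271, 277 and 268 CPM in dividing cells, against 4.07, 0.485 and 1.28 CPM in non-dividing cells. Cenpf, a kinetochore protein, was 209-fold higher (108 to 465) in small intestine, 295-fold higher (137 to 756) in the cecum and 222-fold higher (132 to 402) in colon. Tpx2, which activates Aurora A on the spindle, was 171-fold higher (84.4 to 404), 185-fold higher (92 to 423) and 95.9-fold higher (59.8 to 162). Smc4, a condensin subunit, had the lowest ratio of the list in each tissue, at 2.22-fold higher (2.01 to 2.45), 2.45-fold higher (2.12 to 2.82) and 2.29-fold higher (2.1 to 2.5), and was already at 418, 359.5 and 388 CPM in non-dividing cells.

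The 12 genes with the largest ratio common to all 3 tissues were Hmmr, Cenpf, Neil3, Esco2, Ska1, Mxd3, Nusap1, Hist1h1b, Ccnb1, Kif4, Tpx2 and Cdca3. Neil3, a DNA glycosylase, Esco2, which acetylates cohesin, Ska1, a kinetochore subunit, and Mxd3, a MAX-binding repressor, were on none of the lists. Hmmr, a spindle protein and the gene at the top, had 194, 153 and 139.9 CPM in dividing cells and 1, 2 and 0 UMIs in all non-dividing cells of small intestine, cecum and colon. Esco2 had 133, 177 and 121 CPM in dividing cells, against 0.388, 0.323 and 0.642 CPM in non-dividing cells. Neil3 had 115, 80.4 and 110.1 CPM in dividing cells, against 0.582, 0.162 and 0.428 CPM in non-dividing cells. Hmmr, Esco2 and Neil3 were thus far under 50 CPM in non-dividing cells and passed the filter only through dividing cells. Their direction was fixed by the filter, so the ranking is a description only.

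Histone, chromatin and tubulin genes followed the same direction, with 27, 27 and 27 of 28 tested genes higher in small intestine, cecum and colon. Hist1h1b, a replication-coupled linker histone, was 115-fold higher (78.1 to 176), 133-fold higher (91.1 to 199) and 122-fold higher (82.1 to 187). Stmn1, which destabilizes microtubules, had 482, 692 and 696 CPM in dividing cells, against 2.91, 7.92 and 7.49 CPM in non-dividing cells. The exception was the linker histone Hist1h1c, a variant also made outside S phase, with 152, 137 and 239.5 CPM in dividing cells, against 175, 296 and 219.7 CPM in non-dividing cells. It was called in the cecum alone, where it was 2.16-fold lower (1.54 to 3.14). At matched depth Hist1h1c was 2.74-fold lower in the cecum and 1.67-fold higher in colon, both past the threshold.

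**Figure D4:**
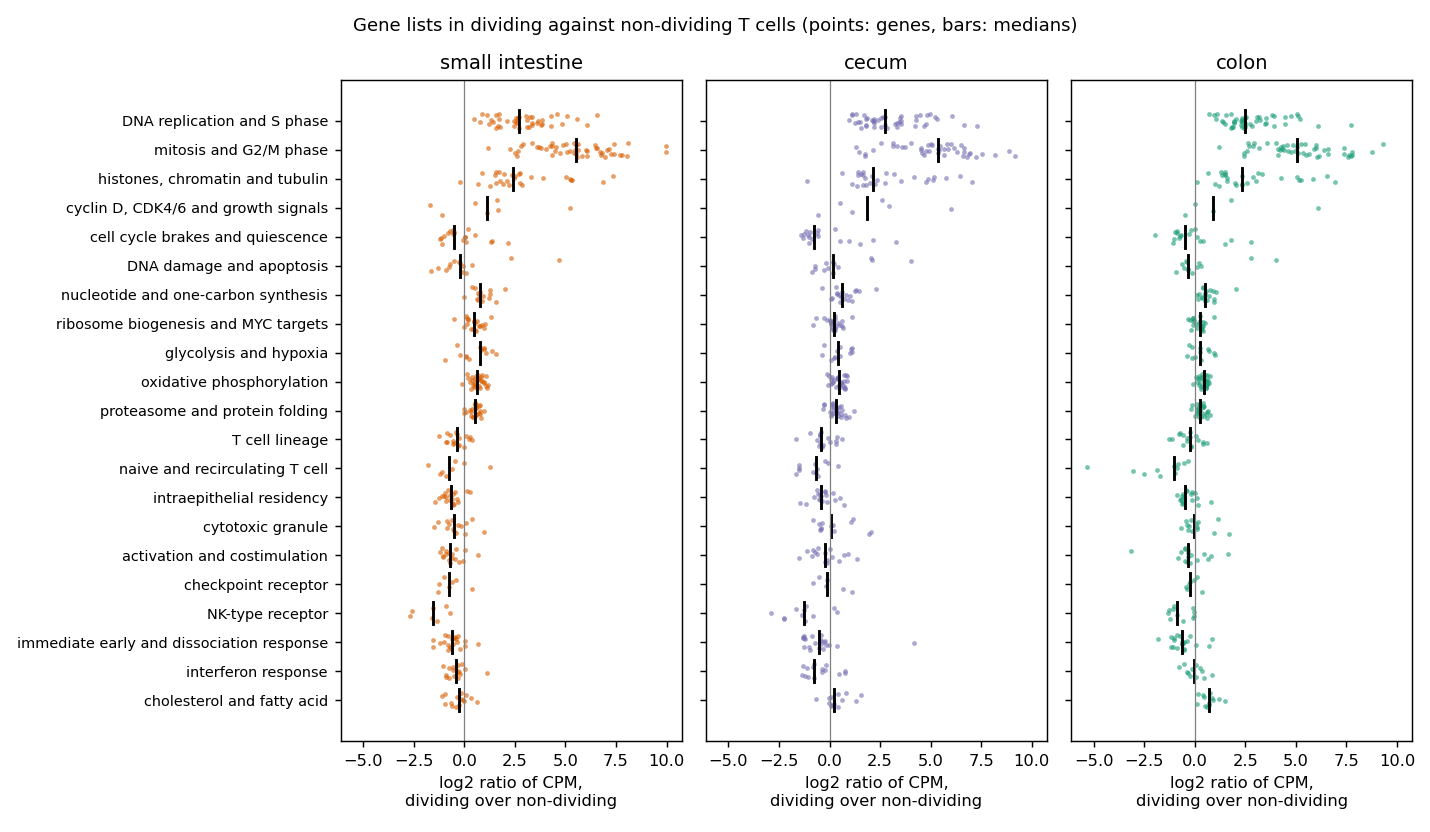
Log2 ratio of CPM in dividing over non-dividing T cells (horizontal axis) for the tested genes of each list (rows), in small intestine, cecum and colon, with 1 point per gene and a black bar at the median of the list. The medians of the S phase list lie at 2.47 to 2.76 and those of the G2 and M phase list at 5.03 to 5.50, while the medians of the metabolic lists lie within 1 unit of 0.

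Among the genes that drive entry into the cycle, the E2F and CDK4 genes were higher and cyclin D2 was not. E2f2, a transcription factor of S phase genes, was 36.9-fold higher (18.6 to 79.7) in small intestine, 63.6-fold higher (28.3 to 156) in the cecum and 68.2-fold higher (35.3 to 145) in colon. Cdk4, the kinase partner of D cyclins, had 227, 382 and 274 CPM in dividing cells, against 104, 178 and 147 CPM in non-dividing cells, a ratio of 2.17, 2.15 and 1.87, and was 1.35-fold higher in colon at matched depth. Ccnd2, the D cyclin that could be tested, had 386, 378 and 475 CPM in dividing cells, against 816, 555 and 656 CPM in non-dividing cells. Against all non-dividing cells it was called lower in small intestine alone, at 2.11-fold lower (1.83 to 2.45). At matched depth it was past the threshold in all 3 tissues, at 2.15-fold lower, 1.51-fold lower and 1.68-fold lower. Myc, the growth factor-induced transcription factor, was 3.29-fold lower (1.82 to 6.66) in small intestine and at a ratio near 1 in colon, with 64 CPM in dividing cells and 62.6 CPM in non-dividing cells.

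Genes that hold cells out of the cycle were called in both directions. Of the list of brakes, 6 of 19 tested genes were lower and 3 higher in small intestine, 10 of 18 lower and 4 higher in the cecum, and 9 of 18 lower and 3 higher in colon. Those higher in all 3 tissues were Cdkn2c, the CDK4 and CDK6 inhibitor p18, and Rbl1, the pocket protein p107, which is itself an E2F target. Cdkn2c was 4.47-fold higher (3.03 to 6.51), 9.67-fold higher (6.02 to 15.2) and 6.74-fold higher (4.69 to 9.58), and Rbl1 was 2.6-, 4.43- and 3.5-fold higher. The antiproliferative gene Btg1 had 1003, 1974 and 1427 CPM in dividing cells, against 2334, 3623 and 2876 CPM in non-dividing cells. Its relative Btg2 was 2.26-fold lower (2.04 to 2.52), 2.49-fold lower (2.2 to 2.84) and 1.73-fold lower (1.6 to 1.87). Cdkn1b, the CDK inhibitor p27, was 2.12-fold lower (1.55 to 2.96), 2.0-fold lower (1.28 to 3.34) and 2.1-fold lower (1.57 to 2.86). In cecum the Cdkn1b difference was gone (log2 ratio 0.0058) when the non-dividing cells were limited to the 36 whose depth lay between the quartiles of the dividing cells.

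Klf2, a transcription factor of quiescence that also drives exit from tissue, was past the threshold in 2 of the 3 tissues, and the difference between tissues was not tested. It had 238 CPM in dividing cells and 164 CPM in non-dividing cells of small intestine, a ratio of 1.45, under the threshold, and was 1.24-fold lower there against cells of matched depth. It had 386 against 1020.1 CPM in the cecum, where dividing cells were 2.64-fold lower (2.16 to 3.27), and 207 against 824 CPM in colon, where they were 3.98-fold lower (3.37 to 4.74). Among cells with a Trdc UMI, 14 of them dividing in the cecum, the cecum difference was absent (log2 ratio 0.041), while colon stayed lower: Klf2 was 2.53-fold lower there. Among cells with a Cd8a UMI Klf2 was 1.52-fold higher (1.19 to 1.93), past the threshold, in small intestine, 1.86-fold lower in the cecum and 2.88-fold lower in colon.

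Survival and repair genes were mixed. Bcl2, which blocks apoptosis, had 271, 531 and 592 CPM in dividing cells, against 835, 971 and 1139 CPM in non-dividing cells, and was lower in all 3 tissues, at 3.08-fold lower (2.61 to 3.67), 1.83-fold lower (1.54 to 2.19) and 1.92-fold lower (1.74 to 2.13), with 1.46-fold lower in the cecum at matched depth. Its relative Mcl1 was 1.66- and 1.63-fold lower in small intestine and cecum and 1.47-fold, under the threshold, in colon. Brca1 and Brca2, repair genes that are also made in S phase, were higher in each tissue. Brca1 was 25.9-fold higher (14.7 to 47.3), 16-fold higher (8.67 to 29.1) and 15.9-fold higher (10.3 to 24.6), and Brca2 was 5.03-, 4.35- and 6.9-fold higher.

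Part of the genes of nucleotide synthesis and oxidative phosphorylation were higher, fewer of them at matched depth. Of the nucleotide and folate list 12 of 15 were higher in small intestine, 10 of 19 in the cecum and 8 of 19 in colon, and 0 were lower. Psat1 and Phgdh, enzymes of serine synthesis, led with Mthfd1, an enzyme of folate metabolism. Psat1 was 3.99-fold higher (2.84 to 5.55), 4.98-fold higher (3.0 to 7.92) and 4.06-fold higher (3.06 to 5.34), Phgdh was 2.4-, 2.44- and 1.68-fold higher, and Mthfd1 was 2.43-, 2.7- and 2.09-fold higher. Against cells of matched depth Phgdh was at a ratio near 1 in colon and Mthfd1 was 1.48-fold higher in the cecum, both under the threshold. The log2 ratio of Mthfd1 in the cecum was −0.52 without barcodes holding 2 or more UMIs of other cells' markers. At matched depth 9 of 15, 5 of 18 and 4 of 19 genes of the list were higher. Oxidative phosphorylation had 16 of 30, 11 of 29 and 7 of 30 genes higher and 0 lower, with median log2 ratios of 0.65, 0.46 and 0.45. Atp5j, a subunit of ATP synthase, was 2.08-fold higher (1.85 to 2.33), 1.81-fold higher (1.52 to 2.14) and 1.66-fold higher (1.5 to 1.82). At matched depth 12 of 30, 8 of 29 and 0 of 30 genes were higher and 1 was lower in the cecum, with Atp5j in colon at 1.37-fold higher.

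Glycolysis had 7 of 13, 4 of 12 and 4 of 12 genes higher. The glycolytic enzymes Tpi1, Gapdh, Pkm and Ldha were the 4 that were higher in all 3 tissues, and Ldha, lactate dehydrogenase A, had 599, 937 and 768 CPM in dividing cells, against 310.1, 435 and 488 CPM in non-dividing cells. Against non-dividing cells of matched depth, 0 of 12 genes of the list were higher in colon, where Tpi1 was 1.33-fold higher, Gapdh 1.4-fold higher, Pkm 1.3-fold higher and Ldha 1.17-fold higher. Tpi1 in the cecum, at 1.37-fold higher, and Gapdh in small intestine, at 1.35-fold higher, were also under the threshold there. Slc2a3, a glucose transporter, was the gene called lower, in small intestine, at 1.92-fold lower (1.17 to 3.41). Of the ribosome biogenesis and MYC target genes 7 of 21 were higher in small intestine, 4 of 24 in the cecum and 1 of 24 in colon. Pa2g4, a growth-regulated nucleolar protein, led that list in every tissue, at 2.5-fold higher (2.05 to 3.01), 2.13-fold higher (1.67 to 2.68) and 1.96-fold higher (1.69 to 2.25), and was 1.41-fold higher in colon at matched depth. Proteasome and folding genes had 10, 5 and 4 of 27 higher and 0 lower. Over all genes tested 18.3%, 19.6% and 14.5% were higher, and in the cecum and colon the shares of the ribosome and proteasome lists were near or below these.

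Counts of cholesterol and fatty acid genes ran differently by tissue, a difference that was not tested. In colon 8 of 13 were higher and 0 lower, in the cecum 4 of 13 were higher and 1 lower, and in small intestine 1 of 15 was higher and 5 were lower. Fdps, the farnesyl diphosphate synthase, was the gene higher in all 3, at 1.57-fold higher (1.32 to 1.85), 2.51-fold higher (1.95 to 3.2) and 2.84-fold higher (2.37 to 3.38). Cyp51, a later enzyme of sterol synthesis, had 159, 193 and 150.3 CPM in dividing cells, against 166, 126 and 81.2 CPM in non-dividing cells. Insig1, which restrains sterol synthesis, was 1.57-fold lower (1.23 to 2.02) in small intestine and 1.64-fold higher (1.33 to 2.01) in colon. At matched depth 0 of 15, 5 of 14 and 4 of 13 genes of the list were higher, and Fdps in small intestine (1.47-fold higher), Cyp51 in colon (1.35-fold higher) and Insig1 in small intestine (1.37-fold lower) were under the threshold.

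The dividing cells carried the T cell lineages of their own tissue, in somewhat different proportions. Trdc, the δ receptor constant region, was found after thinning in 0 of 7, 43 of 98, 9 of 45 and 30 of 91 dividing cells of stomach, small intestine, cecum and colon. That is 43.9% (33.9 to 54.3%) in small intestine, against 52.9% (50.7 to 55.1%) of non-dividing cells. In cecum it is 20% (9.58 to 34.6%), against 11.8% (10.7 to 13%), and in colon 33% (23.5 to 43.6%), against 19.6% (18.2 to 21.1%). The intervals overlapped in small intestine and cecum and did not overlap in colon. The level gave the same directions: Trdc had 820.1, 342 and 601 CPM in dividing cells, against 1227, 272 and 458 CPM in non-dividing cells. The ratio was 1.5-fold lower (1.36 to 1.65) in small intestine, 1.26-fold higher (1.0 to 1.57) in the cecum and 1.31-fold higher (1.18 to 1.45) in colon, within the threshold in all 3. At matched depth Trdc was 1.46-fold lower in small intestine, 1.29-fold lower in the cecum and, past the threshold, 1.6-fold higher in colon. Among cells with a Cd8a UMI Trdc was past the threshold in colon alone, at 1.53-fold higher. In stomach 0 of 7 dividing cells held a Trdc UMI even without thinning, against 47 of 282 non-dividing cells. B-type barcodes held a Trdc UMI after thinning in 0 of 112, 0 of 210, 0 of 444 and 0 of 176 cases. They had been chosen for 0 Cd3 UMIs, so these zeros cannot show that free Trdc RNA was absent. Of barcodes with 2 or more Cd79a UMIs, 12.6%, 25.3%, 12.2% and 14.8% held a Cd3 UMI in the same order. The same limit holds for the B-type shares of Cd8a and Gzma below.

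Cd8a, the CD8 α chain, was found after thinning in 66.3% (56.1 to 75.6%) of dividing cells of small intestine, against 66.6% (64.5 to 68.7%) of non-dividing cells. In cecum it was 31.1% (18.2 to 46.6%), against 25.8% (24.2 to 27.3%), and in colon 51.6% (40.9 to 62.3%), against 40.6% (38.8 to 42.4%). B-type barcodes were at 1.9%, 0.225% and 2.84%. Without thinning the shares were 85.7%, 66.7% and 79.1% of dividing cells and 80.3%, 35.8% and 56.5% of non-dividing cells, and the dividing cells were the deeper ones. Cd8b1, the CD8 β chain of conventional CD8 T cells, was in 5 of 98, 1 of 45 and 1 of 91 dividing cells after thinning, or 5.1%, 2.22% and 1.1%. Among non-dividing cells it was in 3.04%, 2.85% and 2.41%. Cd4 was in 0 of 98, 0 of 45 and 1 of 91 dividing cells, and Foxp3, the regulatory T cell factor, in 1 of 98, 0 of 45 and 0 of 91.

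Cells with an α or β receptor constant region but no Trdc, Cd8a, Cd8b1 or Cd4 UMI were less common among dividing cells of colon, while the intervals overlapped in the cecum and small intestine. After thinning they were 46.7% (31.7 to 62.1%) of dividing cells and 60.8% (59.1 to 62.5%) of non-dividing cells in the cecum. In colon they were 27.5% (18.6 to 37.8%), against 43% (41.2 to 44.8%), with no overlap of the intervals. In small intestine they were 13.3% (7.26 to 21.6%), against 14.2% (12.7 to 15.8%). In stomach they were 5 of 7 dividing cells, against 53.7% (47.7 to 59.7%) of non-dividing cells. A missing UMI at 1000 UMIs per cell is not proof that a cell lacks the transcript, and the same holds for both groups.

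**Figure D5:**
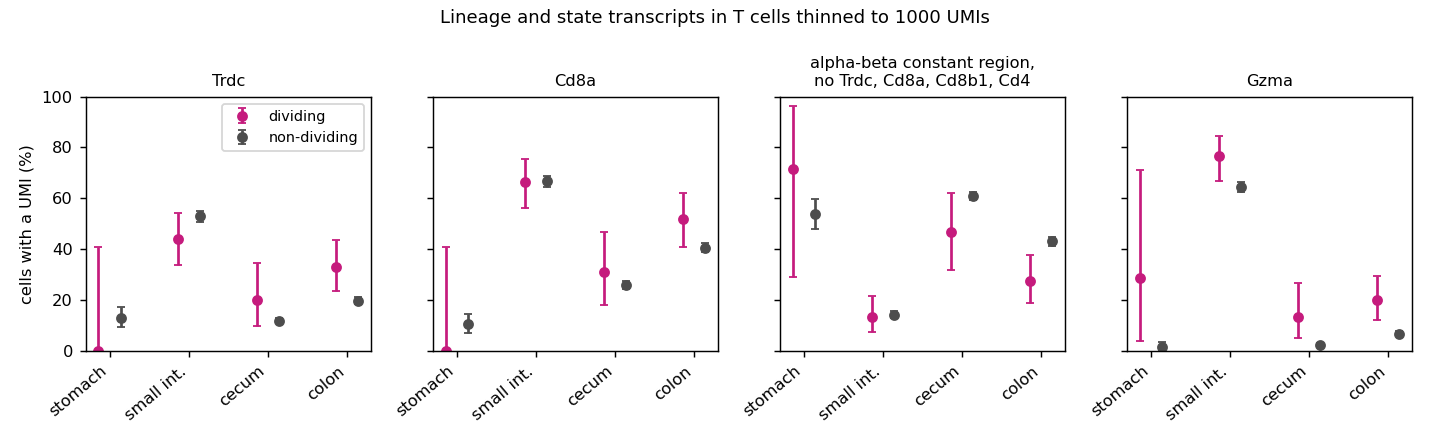
Share of T cells thinned to 1000 UMIs that hold a UMI of Trdc, of Cd8a, of an α or β receptor constant region with no UMI of Trdc, Cd8a, Cd8b1 or Cd4, and of Gzma (panels), in dividing and non-dividing T cells of each library (horizontal axis), with exact 95% binomial intervals as bars. Dividing cells of colon lie above non-dividing cells for Trdc (33.0% and 19.6%) and Gzma (19.8% and 6.62%) and below them for the cells without coreceptor UMIs (27.5% and 43.0%).

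Receptor and signalling genes of the T cell list were mostly within 1.5-fold, with 5 of 18, 3 of 17 and 5 of 17 lower and 0, 1 and 0 higher. Cd27, a costimulatory receptor of less differentiated T cells, was lower in all 3 tissues, at 1.83-fold lower (1.21 to 2.89), 1.94-fold lower (1.13 to 3.66) and 1.67-fold lower (1.18 to 2.42). Against cells of matched depth it was 1.35-fold lower in the cecum and 1.35-fold lower in colon, both under the threshold. Cd28, the main costimulatory receptor of conventional T cells, was 3.15-fold lower (2.07 to 5.04) in the cecum and 2.17-fold lower (1.63 to 2.95) in colon, with 67.2 CPM in dividing and 82 CPM in non-dividing cells of small intestine. Cd2, an adhesion receptor that natural intraepithelial T cells lack, was 1.54-fold lower (1.12 to 2.19) in the cecum (1.42-fold lower at matched depth) and 2.42-fold lower (1.84 to 3.24) in colon. Fcer1g, an ITAM adaptor of γδ and CD8αα cells in the gut, was 2.37-fold lower (2.17 to 2.59) in small intestine and had 973 and 1686 CPM in dividing cells of cecum and colon, against 1351 and 1644 CPM in non-dividing cells.

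By summed level, Gzma and Gzmb were past 1.5-fold higher in dividing cells of cecum and colon and within 1.5-fold in those of small intestine. Gzma, granzyme A, had 27224 CPM in dividing and 26399 CPM in non-dividing cells of small intestine, so it was among the most abundant transcripts of both. In cecum it had 2219.8 against 569 CPM, and was 3.9-fold higher (3.56 to 4.27). In colon it had 4562 against 1422 CPM, and was 3.21-fold higher (3.08 to 3.34). A single dividing cell gave 31.2% of the Gzma UMIs in the cecum and 17.2% in colon, and without it Gzma was 2.74-fold higher in the cecum and 2.7-fold higher in colon. By cells, after thinning, a Gzma UMI was in 76.5% (66.9 to 84.5%) of dividing and 64.4% (62.3 to 66.5%) of non-dividing cells of small intestine, in 13.3% (5.05 to 26.8%) and 2.28% (1.8 to 2.86%) in the cecum, and in 19.8% (12.2 to 29.4%) and 6.62% (5.74 to 7.58%) in colon. The intervals of dividing and non-dividing cells did not overlap in any of the 3. B-type barcodes were at 4.29%, 0% and 1.7%. In stomach 2 of 7 dividing cells held a Gzma UMI after thinning, against 4 of 281 non-dividing cells.

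Gzmb, granzyme B, had 2689, 1017 and 1955 CPM in dividing cells of small intestine, cecum and colon, against 3636, 244 and 1014 CPM in non-dividing cells. It was 1.35-fold lower (1.28 to 1.43), under the threshold, in small intestine, 4.16-fold higher (3.63 to 4.76) in the cecum and 1.93-fold higher (1.82 to 2.04) in colon. The lineages differ between the groups, so both genes were also read within lineages. Among cells with a Trdc UMI, Gzma was 1.12-fold higher, 1.81-fold higher and 1.93-fold higher in the 3 tissues and Gzmb was 1.27-fold lower, 3.32-fold higher and 1.48-fold higher. Among cells with a Cd8a UMI, Gzma was 1.03-fold higher, 2.28-fold higher and 2.74-fold higher and Gzmb was 1.31-fold lower, 2.54-fold higher and 1.61-fold higher. Against non-dividing cells of matched depth, Gzmb was 2.53-fold higher in the cecum and 1.32-fold higher, under the threshold, in colon. The 36 matched cells of the cecum held 0 Gzma UMIs, so no fold is given there, and Gzma was 3.91-fold higher in colon. Over the whole list of cytotoxic granule genes, 1 of 15 were higher and 6 lower in small intestine, 4 of 13 higher and 1 lower in the cecum, and 3 of 14 higher and 1 lower in colon. Ccl5, a chemokine stored by these cells, was 1.79-fold lower (1.75 to 1.83), 1.75-fold lower (1.63 to 1.88) and 1.34-fold lower (1.3 to 1.39), and at matched depth 1.41-fold lower in small intestine and 1.12-fold lower in the cecum, both under the threshold.

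Genes of tissue residency were mostly lower or within 1.5-fold. Of 20 tested in small intestine 12 were lower and 0 higher, of 18 in the cecum 4 were lower and 1 higher, and of 18 in colon 7 were lower and 1 higher. Itgae, the αE integrin that binds epithelial E-cadherin, had 639.6, 289.5 and 296 CPM in dividing cells, against 953, 179 and 261 CPM in non-dividing cells. It was called in the cecum alone, where it was 1.61-fold higher (1.25 to 2.05). Ccr9, the receptor for the small intestinal chemokine CCL25, was called in colon alone, where it was 1.72-fold higher (1.32 to 2.2), from 106 CPM in dividing and 61.5 CPM in non-dividing cells. At matched depth Ccr9 was 1.1-fold higher in colon and Itgae 1.48-fold higher in the cecum, both under the threshold. Rgs1, which dampens chemokine signals, was 2.42-fold lower (2.28 to 2.58), 1.68-fold lower (1.55 to 1.82) and 1.43-fold lower (1.37 to 1.5), and Cd69, which keeps cells in tissue, was 1.42-fold lower (1.19 to 1.7), 2.23-fold lower (1.75 to 2.9) and 1.57-fold lower (1.36 to 1.82). At matched depth Rgs1 was 1.1-fold lower in the cecum and Cd69 1.33-fold lower in colon, under the threshold, and 1 of 16 and 2 of 18 genes of the list were lower in the cecum and colon. Gpr55, a lipid receptor of intestinal γδ T cells in mice, was 2.76-fold lower (1.79 to 4.5) in small intestine.

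Genes of naive and recirculating T cells were lower where they were abundant. In colon 9 of 11 were lower and 0 higher, in the cecum 8 of 12 lower and 0 higher, and in small intestine 5 of 8 lower and 1 higher. Ly6c2, a surface marker of circulating CD8 T cells, had 4.46 CPM in dividing and 182 CPM in non-dividing cells of colon, where dividing cells were 40.9-fold lower (14 to 198). Only 3 UMIs lie behind the dividing value. In cecum Ly6c2 had 88.5 against 251 CPM, but among cells with a Trdc UMI its log2 ratio there was 0.16. Il7r, the interleukin-7 receptor, was 2.28-fold lower (1.5 to 3.63) in small intestine, 1.76-fold lower (0.918 to 3.88) in the cecum, with an interval that includes 1, and 8.33-fold lower (3.81 to 22.8) in colon. Lef1, a factor of naive cells, was 3.12-fold lower (1.64 to 6.86) in the cecum and 5.81-fold lower (3.14 to 12.2) in colon, and Satb1, a chromatin organizer, was 2.12-fold lower (1.32 to 3.62), 2.89-fold lower (1.92 to 4.58) and 3.62-fold lower (2.63 to 5.13). Within cells with a Cd8a UMI, Il7r was 1.35-fold lower in small intestine and 1.46-fold lower in the cecum, and within cells with a Trdc UMI 1.4-fold lower and 1.16-fold lower, so these calls ended in both. In colon Il7r was 3.89-fold lower within cells with a Trdc UMI, and Lef1 was 3.82-fold lower within cells with a Cd8a UMI.

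Receptors of NK type were also lower. Of the list 7 of 7 tested were lower in small intestine, 9 of 11 in the cecum and 6 of 11 in colon, and 0 were higher. Klra7, a Ly49 receptor, had 11.5, 157 and 184 CPM in dividing cells, against 70.2, 488 and 384 CPM in non-dividing cells. Its small intestinal count rested on 1 dividing cell, and among colon cells with a Trdc UMI its log2 ratio was 0.086. Klrb1c, the NK1.1 antigen, was 6.52-fold lower (2.77 to 20.2), 2.53-fold lower (1.22 to 6.34) and 1.87-fold lower (1.3 to 2.79), and among cells with a Cd8a UMI 1.42-fold lower in the cecum and 1.47-fold lower in colon, both under the threshold. The Ly49 genes are near-identical copies, so the split of reads between them is uncertain.

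Of the activation and costimulation list 11 of 17 were lower and 1 higher in small intestine, 6 of 17 lower and 3 higher in the cecum, and 3 of 17 lower and 3 higher in colon. The 3 lower in all 3 tissues were Il21r, Tnfrsf18 and Ifng, and Tfrc was the gene higher in all 3. Tfrc, the transferrin receptor of iron uptake, was 1.58-fold higher (1.04 to 2.33), 1.66-fold higher (0.972 to 2.68) and 1.73-fold higher (1.28 to 2.3), with an interval in the cecum that includes 1. Its ratio turned below 1 in small intestine and colon when barcodes with 2 or more UMIs of other cells' markers were left out, which removed 56.1% and 74.7% of the dividing cells. At matched depth it was 1.39-fold higher in small intestine and 1.46-fold higher in colon, both under the threshold. Il21r, the interleukin-21 receptor, was 2.27-fold lower (1.7 to 3.11), 1.68-fold lower (1.27 to 2.25) and 1.59-fold lower (1.3 to 1.95), and at matched depth 1.35-fold lower in the cecum and 1.46-fold lower in colon, both under the threshold. Lag3, an inhibitory receptor, had 106, 84.4 and 81.8 CPM in dividing cells, against 262, 39.4 and 64.4 CPM in non-dividing cells. Of the checkpoint list 5 of 7 were lower in small intestine, 2 of 6 were higher and 1 lower in the cecum, and 0 of 7 were called in colon.

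Immediate early and stress genes, which respond to tissue dissociation, were lower in dividing cells. Of 21, 22 and 21 tested, 11, 10 and 13 were lower and 1, 1 and 2 higher. Junb, an AP-1 subunit, had 1164, 2891 and 1686 CPM in dividing cells, against 3366, 5902 and 3547 CPM in non-dividing cells. At matched depth the cecum value of Junb was 1.5-fold lower, just under the threshold. Hspa1a, an inducible heat-shock protein, was 1.35-fold lower (1.21 to 1.52) in small intestine, under the threshold, 2.5-fold lower (2.15 to 2.91) in the cecum and 3.49-fold lower (2.98 to 4.12) in colon. Of the interferon list 5 of 16, 8 of 15 and 1 of 12 were lower, while Ifi27l2a, an interferon-induced mitochondrial protein, was 2.14-fold higher (1.78 to 2.56), 1.7-fold higher (1.13 to 2.48) and 1.81-fold higher (1.48 to 2.21). In cecum Ifi27l2a was lower among cells with a Trdc UMI and among those with a Cd8a UMI, with log2 ratios of −0.53 and −0.32, and at matched depth it was 1.34-fold higher there and 1.31-fold higher in colon. At matched depth 2 of 10 interferon genes of the cecum were lower.

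The 12 genes with the lowest ratio common to all 3 tissues were Kdm5b, Tcp11l2, Ltb, Kdm7a, Clec2d, Phf1, Evl, Fam102a, Ssh2, Frat1, Hdac4 and Dtx4. Kdm5b, Kdm7a, Phf1 and Hdac4 act on chromatin. Kdm5b, a demethylase of histone H3 lysine 4, had 15.4, 40.2 and 32.7 CPM in dividing cells, against 97.9, 168 and 107 CPM in non-dividing cells, and was 6.37-fold lower (3.21 to 14.8), 4.17-fold lower (2.26 to 8.72) and 3.27-fold lower (2.15 to 5.24). Kdm7a, another histone demethylase, was 3.5-fold lower (2.06 to 6.44), 3.01-fold lower (1.45 to 7.52) and 2.47-fold lower (1.59 to 4.07). Ltb, lymphotoxin β, had 74.9, 133 and 165 CPM in dividing cells, against 241, 420.4 and 468 CPM in non-dividing cells. Clec2d, the ligand of an inhibitory NK-type receptor, was 2.75-fold lower (1.83 to 4.32), 2.68-fold lower (1.4 to 5.88) and 2.41-fold lower (1.81 to 3.3). Frat1, which binds the kinase GSK3, was lower by 4.37-, 2.27- and 2.32-fold, but had a log2 ratio of 0.0047 among cecum cells with a Trdc UMI. TTTGAA was in 0 of the 13 RefSeq windows found for 11 of these genes and in 4 of the 8 windows found for 8 of the 12 highest, beside 17.9% of all windows. The 12 highest include genes of the G2 and M phase list counted above. The cells were also chosen on genes whose windows hold TTTGAA, so nothing further is read from these counts.

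Some dividing barcodes of small intestine, cecum and colon held many transcripts of other cells, read here without thinning in cells that were deeper than the non-dividing ones. At least 10 UMIs of a single list of other-cell markers were in 9 of 98 dividing barcodes of small intestine, or 9.18%, in 2 of 45 of cecum, or 4.44%, and in 1 of 91 of colon, or 1.10%. Among non-dividing barcodes the shares were 1.67%, 0.338% and 0.137%. In stomach it was the reverse, with 0 of 7 dividing barcodes, against 13.5% of non-dividing ones, nearly all by mast cell genes. Much of the dividing total of some lists lay in a single barcode. In cecum the mast cell list made up 4009 CPM in dividing and 450.5 CPM in non-dividing barcodes, 81.4% of the dividing total being in 1 barcode. In small intestine the plasma cell list made up 1433 against 755 CPM, with 93.2% in 1 barcode, and in colon the epithelial list 628 against 197 CPM, with 80.3% in 1 barcode. The small intestinal epithelial list made up 801 against 191 CPM, with 48.7% in 1 barcode. At equal depth, after thinning, a UMI of the plasma cell list was in 7.14% of dividing and 14.6% of non-dividing cells of small intestine, and 1 of the mast cell list in 11.2% and 16.2%. The B cell list was in 7.14% and 9.03% there, and the epithelial list in 14.3% and 15.2%. A UMI of the epithelial list was in 8.89% and 13.3% in the cecum and in 11% and 13.5% in colon. The mast cell list was in 17.8% and 15.4% in the cecum and in 18.7% and 15.2% in colon. Of the 7 listed macrophage markers 6, C1qa and Csf1r among them, and the B cell gene Pax5 were at 0 in the dividing cells of these 3 tissues. Without such barcodes 758 of the 856 genes called higher in small intestine were still called, 856 of 924 in the cecum and 610 of 655 in colon.

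Dividing cells were checked for NK cells as well, since these can hold CD3 transcripts. The NK and ILC1 list made up 540 CPM in dividing and 759.7 CPM in non-dividing cells of small intestine, 1263 against 966 CPM in the cecum and 1760.1 against 1672 CPM in colon. At least 10 UMIs of the list were in 7.14%, 22.2% and 54.9% of dividing cells and in 4.22%, 2.67% and 16.0% of the shallower non-dividing cells. Nearly all of it was Xcl1, a chemokine that intraepithelial T cells also make, with 272, 303 and 1136 UMIs in dividing cells. The NK-defining genes Ncr1 and Eomes had 2 and 1 UMIs in the 98 cells of small intestine, 0 and 0 in the 45 of cecum and 2 and 2 in the 91 of colon. Of the other list members, Klrb1c and Klri2 had UMIs in dividing cells of each of these tissues, and Klra8 in colon alone. After thinning, a UMI of the list was in 17.3% of dividing and 31.6% of non-dividing cells of small intestine. The shares were 44.4% and 45.0% in the cecum and 68.1% and 58.0% in colon.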

How the data were processed

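Transcripts were measured in 4 droplet libraries, 1 each of stomach, small intestine, cecum and colon. The authors deposited whole-number UMI counts per gene symbol and barcode. Cell Ranger, Seurat 3.0.0 and the builds GRCm38 and mm10 are named per the submitters' processing notes, and the filters behind the deposited counts are not given in the sources used here. The files list 16500 symbols in any library and 13102 in all, with 0 ribosomal protein or mitochondrial symbols.

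All deposited barcodes were used, with no further filter and no doublet caller. Groups were set by the UMI rule of the opening. The members, gene lists and alternatives were chosen with earlier results of these data known. Counts were summed per group and divided by the group's total to give CPM, and a count of 0 entered ratios at a floor of 3 counts. Intervals are exact (Clopper-Pearson for shares, Poisson for CPM, conditional binomial for ratios) at 95%. Thinning drew 1000 UMIs per cell without replacement and left out shallower cells. No test was made, since each tissue had 1 library. Named genes were the rule genes, the 12 highest and 12 lowest by the ratio nearest 1 over the 3 tissues with at least 30 dividing cells, and examples from the lists, of which those not at a list's end were chosen after their values were seen. Fold recovery was tested on simulated data. Promoter windows came from RefSeq tables of GRCm38.p6. Python 3.11.15, numpy 2.4.6, scipy 1.17.1, pandas 2.3.3 and matplotlib 3.10.9 were used. Alternatives changed the threshold, depth, marker set, scaling, lineage transcript and barcodes with other cells' transcripts. For gene ratios, cells with a Trdc or a Cd8a UMI were taken from unthinned counts, and the same cell can be in both sets. Library totals were 9022713 UMIs in stomach, 11750691 in small intestine, 8568438 in the cecum and 12988676 in colon. Results for a few list members are not reported here.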

Additional observations from a re-analysis of the deposited data

Results flagged for a closer look

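For 8 of 463 list or ranked genes looked at, the dividing cells were past 1.5-fold higher than non-dividing cells in 1 tissue and past 1.5-fold lower in another. With 1 library per tissue, these differences between tissues were not tested. Each value below is the difference of the log2 ratios between the 2 tissues.

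Lag3, an inhibitory receptor, differed by 2.41 between cecum, where it was 2.14-fold higher (1.3 to 3.35), and small intestine, where it was 2.48-fold lower (1.89 to 3.31). Serpina3g, a serine protease inhibitor of activated lymphocytes, differed by 2.34 between cecum, at 2.08-fold higher (1.56 to 2.74), and small intestine, at 2.43-fold lower (1.9 to 3.15). Ccl4, a chemokine, differed by 1.73 between cecum, at 2.21-fold higher (1.73 to 2.78), and small intestine, at 1.5-fold lower (1.33 to 1.71). Irf8, a transcription factor, differed by 1.55 between cecum, at 1.91-fold higher (1.41 to 2.54), and small intestine, at 1.53-fold lower (1.2 to 1.99). The cecum ratios of Ccl4 and Irf8 turned negative against cells of matched depth, with log2 ratios of −0.51 and −0.89. Where a Trdc UMI was required, the cecum values were 1.34-fold higher for Lag3, 1.43-fold higher for Serpina3g, 1.15-fold higher for Ccl4 and 1.41-fold higher for Irf8, all under the threshold. Without its top cell Ccl4 was 1.11-fold higher in the cecum.

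Rasgrp2, a guanine nucleotide exchange factor for Rap1, differed by 2.33 between small intestine, at 2.42-fold higher (1.68 to 3.42), and colon, at 2.07-fold lower (1.39 to 3.23). Dusp2, a phosphatase of MAP kinases, differed by 1.34 between small intestine, at 1.62-fold higher (1.26 to 2.07), and colon, at 1.56-fold lower (1.22 to 2.03). At matched depth Dusp2 was 1.31-fold higher in small intestine and 1.43-fold lower in colon, both under the threshold, and 1.35-fold higher in small intestine without its top cell. Insig1 differed by 1.36 between colon, at 1.64-fold higher (1.33 to 2.01), and small intestine, at 1.57-fold lower (1.23 to 2.02), the small intestine value being 1.37-fold lower at matched depth. Atf3, a stress-induced factor, differed by 2.05 between colon, at 1.79-fold higher (1.45 to 2.18), and cecum, at 2.32-fold lower (1.35 to 4.38). The colon value of Atf3 rested on 1 dividing cell with 52.3% of its UMIs, and without that cell its log2 ratio was −0.22. At matched depth it was 1.23-fold higher in colon and 1.35-fold lower in the cecum.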

How the results depend on the processing

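No paired analysis was possible because each tissue had 1 library. The share of dividing T cells depended on depth and threshold. Thinned to 1000 UMIs it was 0.313%, 2.21%, 0.800% and 1.11% at 3 marker UMIs and 6.90%, 9.81%, 3.14% and 5.68% at 1, in stomach, small intestine, cecum and colon. With the 5 other cell cycle genes it was 0.312%, 2.29%, 0.757% and 1.25%. At 2 marker UMIs it was 6.03% in small intestine and 4.71% in colon, and at 5 it was 2.85% and 1.79%. Among barcodes of at least 1500 UMIs it was 1.82% in the cecum. Without barcodes holding 2 or more UMIs of other cells' markers it was 3.19% in small intestine, 0.766% in the cecum and 1.21% in colon. Small intestine had the highest and cecum the lowest share of these 3 libraries wherever all 3 are given.

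Without thinning a Trdc UMI was in 67.3% of dividing cells of small intestine and 45.1% of colon, and a Cd8a UMI was in 85.7% of small intestine, 66.7% of the cecum and 79.1% of colon. At 2 UMIs after thinning Trdc was in 17.3% and 20.9%, and Cd8a in 41.8%, 11.1% and 27.5%. With no minimum level, 5270 genes were higher and 2855 lower in small intestine, 5483 and 2407 in the cecum and 4732 and 2431 in colon. In colon 895 were lower without barcodes holding 2 or more UMIs of other cells' markers, against 583.

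Matched depth ended the most calls of named genes, 51 of the 284 that had a value there, and 31 of 276 ended among cells with a Trdc UMI, 28 of 289 among cells with a Cd8a UMI and 35 of 269 without barcodes holding 2 or more UMIs of other cells' markers. Over all alternatives 17 called ratios changed sign, and uncalled ones were not counted. Against cells of matched depth in the cecum the log2 ratios were −0.51 for Ccl4, 0.0058 for Cdkn1b and −0.89 for Irf8. Without barcodes holding 2 or more UMIs of other cells' markers they were −0.67 for Tfrc in small intestine, −0.52 for Mthfd1 in the cecum, and −0.25 for Atf3, 0.13 for Klra1 and −0.024 for Tfrc in colon. Among cells with a Trdc UMI they were 0.0047 for Frat1, −0.53 for Ifi27l2a, 0.041 for Klf2 and 0.16 for Ly6c2 in the cecum and 0.086 for Klra7 in colon. Among cells with a Cd8a UMI in the cecum they were 0.12 for Atf3 and −0.32 for Ifi27l2a. Atf3 was 0.42 in small intestine as a mean over cells and −0.22 in colon without its top cell. The causes were not tested. Leaving out barcodes with 10 or more UMIs of a single other-cell list, and a minimum of 10 marker UMIs, were chosen after seeing the data. Depth limits the lineage shares, and 7 cells limit everything on stomach.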
